A study of Homo sapiens with 4 samples.

Results

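ATP-binding cassette (ABC) transporters were examined as a gene family of 37 members, taken by gene symbol from a list of the family, on arrays that gave a value for 19140 genes. Of the 37, 36 had a gene value, and ABCD2, a peroxisomal fatty acid transporter, had none because all 11 of its probe sets were dim. The cells were Huh7, a human hepatocellular carcinoma line. One group was treated with siRNA, a short RNA that silences its target, directed at NF90, which is a binding protein of double-stranded RNA (siNF90, 2 arrays), and the other with the control siRNA labelled siNTC (2 arrays). RNA of each sample was hybridised to 1 Affymetrix array, and neither dose nor time of the siRNA is stated in the labels. NF90's own gene was not used here, so the groups rest on the sample titles. The labels do not say whether the 2 samples of a group were grown separately, and every p-value therefore reflects array-to-array spread that may be technical.

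ABC transporters are membrane proteins that bind and hydrolyse ATP to move substrates across a membrane. In liver cells, members of the A and G subfamilies export sterols and phospholipids to apolipoproteins and bile, members of the B and C subfamilies and ABCG2 export drugs, bile constituents and conjugates, and members of the D subfamily serve peroxisomes and lysosomes. The E and F subfamilies have the ATP-binding domains but no membrane part, and act on ribosomes. Several lipid exporters are known targets of the liver X receptors (LXR), nuclear receptors that bind oxysterols.

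Promoter windows are shown for 4 genes that the values below turn on: ABCA1 and ABCA7, lower on both siNF90 arrays, ABCG8, which shares its upstream region with ABCG5, and ABCD3, higher on both siNF90 arrays. They run from 250 bases before to 50 bases after the annotated start, come from RefSeq on build GRCh38.p14, and are written 5′ to 3′ along the gene. Capitals mark the GC box bound by Sp1 (GGGCGG), the E box (its letters being CACGTG), the TATA box (spelled TATAAA), the CCAAT box, the GATA site (spelled AGATAA) and the LXR element of ABCA1, each searched on both strands.
ABCA1, chr9:104928106-104928405, minus strand: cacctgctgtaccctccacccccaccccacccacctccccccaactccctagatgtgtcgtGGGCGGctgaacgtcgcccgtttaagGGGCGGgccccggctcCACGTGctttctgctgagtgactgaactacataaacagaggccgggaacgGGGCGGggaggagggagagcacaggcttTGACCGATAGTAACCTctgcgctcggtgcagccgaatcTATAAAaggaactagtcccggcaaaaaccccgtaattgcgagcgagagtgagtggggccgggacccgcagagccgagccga
ABCG8, chr2:43838721-43839020, plus strand: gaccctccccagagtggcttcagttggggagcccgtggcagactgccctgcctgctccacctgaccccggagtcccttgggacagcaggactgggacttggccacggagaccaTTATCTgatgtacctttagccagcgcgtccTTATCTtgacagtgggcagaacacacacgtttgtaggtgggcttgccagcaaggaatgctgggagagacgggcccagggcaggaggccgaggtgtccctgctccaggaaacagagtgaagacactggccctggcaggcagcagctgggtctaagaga
ABCA7, chr19:1039857-1040156, plus strand: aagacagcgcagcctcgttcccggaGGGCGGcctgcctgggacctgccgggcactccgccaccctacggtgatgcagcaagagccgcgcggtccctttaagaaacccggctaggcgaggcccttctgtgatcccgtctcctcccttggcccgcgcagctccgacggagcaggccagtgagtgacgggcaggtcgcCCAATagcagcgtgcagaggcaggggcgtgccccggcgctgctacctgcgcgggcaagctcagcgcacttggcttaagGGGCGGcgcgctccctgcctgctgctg
ABCD3, chr1:94418139-94418438, plus strand: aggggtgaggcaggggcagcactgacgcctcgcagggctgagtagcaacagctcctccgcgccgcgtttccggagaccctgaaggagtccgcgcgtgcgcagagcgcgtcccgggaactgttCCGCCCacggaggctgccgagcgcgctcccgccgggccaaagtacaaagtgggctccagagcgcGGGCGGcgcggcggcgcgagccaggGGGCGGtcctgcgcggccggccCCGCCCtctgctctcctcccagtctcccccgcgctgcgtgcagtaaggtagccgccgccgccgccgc

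The ABCA1 window held the run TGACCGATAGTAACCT, the known LXR-responsive direct repeat of this gene read on the opposite strand, 69 bases before the start. That element, with its spacer left free, was found in 1 of 35116 windows of the same length, this one. The letters searched were those of this gene's own element, so the match here was fixed in advance. The window also held 3 GC boxes, an E box 147 bases and a TATA box 31 bases before the start, and those 3 motifs were in 45%, 7.26% and 11.5% of all windows. The ABCG8 window shared 231 bases with that of ABCG5, since the start sites of both genes face away from each other, and held 2 GATA sites, a motif found in 10.3% of all windows. The ABCD3 window held 4 GC boxes and the ABCA7 window 2, with a CCAAT, a motif in 34.6% of all windows. The canonical LXR direct repeat, a pair of half-sites AGGTCA with a free spacer, was in 0 of the 50 windows of 33 members and in 0.0199% of all windows, and the half-site alone was in 3 of the 50 against 13.8% of all windows. Of the 50 windows, 46% held a GC box, 18% an E box, 16% a TATA box, 24% a CCAAT box and 8% a GATA site. A match is a description of letters and the sources used here hold no binding data.

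On the arrays as a whole, each array's median probe set was between 2.72 and 2.79 (log2), and pairs of arrays correlated at between 0.936 and 0.958 over genes, which are not independent replicates. Of the 13 hepatocyte markers on the list, 12 had a gene value. Among them ALB was at 10.8 and 10.6 on the siNF90 arrays and 11.1 on both siNTC arrays, and AFP at 10.8 on all 4. Of these 12, 7 were lower and 5 higher in siNF90, with a median difference of -0.12. In 6 both siNF90 arrays were below both siNTC arrays and in 3 above, against 22% and 19.2% of all genes. Of 4 leukocyte markers 3 had a value, all 3 higher in siNF90 with overlapping groups and a median difference of 0.34, and their mean was 3.65 and 2.74 on the siNF90 arrays and 2.79 and 2.59 on the siNTC arrays. They rest on 4 of 27 probe sets for PTPRC, 1 of 9 for CD3E and 5 of 6 for CD14. The endothelial markers VWF and CDH5 stayed between 2.57 and 3.31, both higher in siNF90 with overlapping groups. Of 3 stromal markers COL1A1 and PDGFRB were higher in siNF90 without overlap, as were 19.2% of all genes, at differences of 0.092 and 0.57. COL1A2 had -0.34, and the means of the 3 were 3.35 and 3.68 on the siNF90 arrays and 3.41 on both siNTC arrays. The part of such cells in the values below was not tested. The cholangiocyte keratin KRT19 was at 7.20 and 7.15 in siNF90 and 6.97 and 7.13 in siNTC cells. Since each array reads the RNA of a whole culture, fewer cells of a kind and less RNA per cell cannot be told apart.

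Across the 36 members, siNF90 was lower in 22 and higher in 14, on values formed as the mean of a gene's probe sets that passed a filter at the 40th percentile of all probe sets. In 52.5% of all genes tested the value was lower in siNF90, and 61.1% of members were. The median difference, siNF90 minus siNTC on the log2 scale here and throughout, was -0.10 over the members and -0.02 over all genes. The mean over the members was 4.62 and 4.54 on the siNF90 arrays, against 4.65 and 4.68 on the siNTC arrays. Both siNF90 means were below both siNTC means, and the difference of -0.082 was -0.044 without the second siNF90 array. All-gene means were 4.39 and 4.31 on the siNF90 arrays and 4.39 and 4.35 on the siNTC arrays.

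The limma test, with Benjamini-Hochberg adjustment over all genes at 0.05, called 0 of the 36 members (percent of all genes called: 0), and the lowest adjusted p among them was 0.514. With a trend and robust prior the count was also 0, where 0.251% of all genes were called. At an unadjusted p under 0.05 there were 4 members, or 11.1%, against 8.79% of all genes. Of these 4, ABCA1, ABCA7 and ABCC3 were lower in siNF90 (5.29% of all genes) and ABCC9 was higher (3.51%). The groups did not overlap in 17 members (47.2%, against 41.1% of all genes). In 10 of these siNF90 was below siNTC (27.8%, against 22% of all genes), and in 7 above (19.4%, against 19.2%). A difference of at least 1.5-fold was seen in 4 members (11.1%, against 12.3% of all genes). These shares of the family were close to those of all genes.

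**Figure D1:**
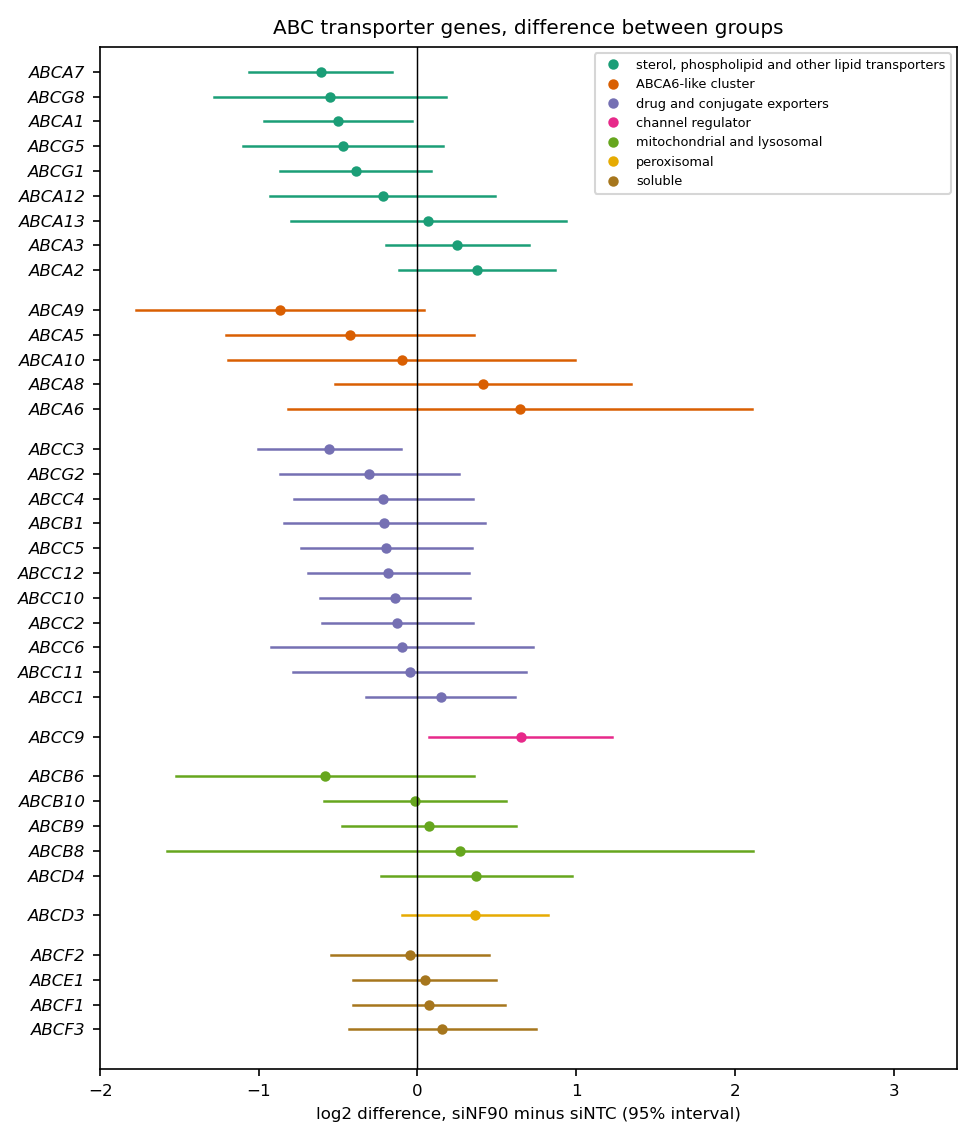
Log2 difference, siNF90 minus siNTC, of each of the 36 members with a gene value (points) with its 95% interval from limma (lines), grouped by role and ordered within the group. The intervals of ABCA7, ABCA1 and ABCC3 lie below 0 and that of ABCC9 above 0, and 0 members passed the adjusted threshold.

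**Figure D2:**
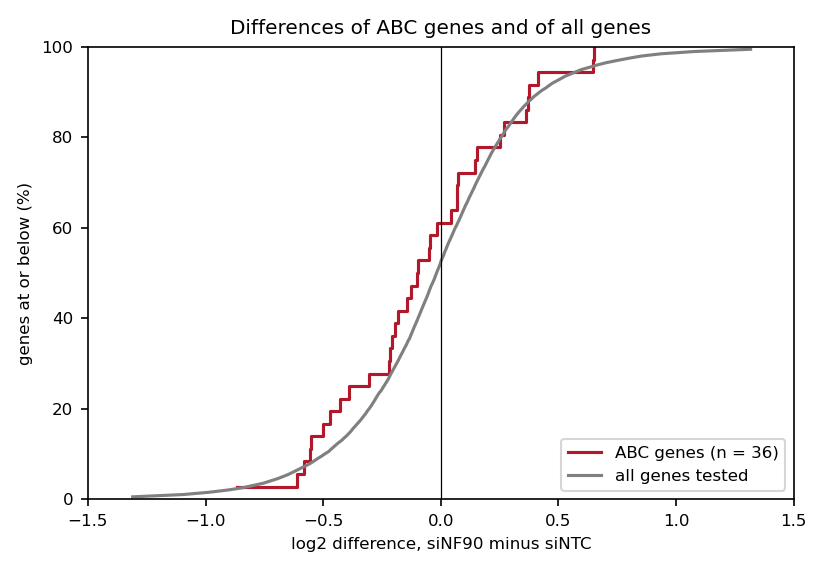
Cumulative share of genes (vertical axis, percent) by log2 difference, siNF90 minus siNTC (horizontal axis), for the 36 ABC genes (red steps) and for all genes tested (grey line). The median is -0.10 for the ABC genes and -0.02 for all genes, and the curves run close together at both ends.

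The first role group holds 9 transporters of sterols, phospholipids and other lipids, of which 6 were lower and 3 higher in siNF90, with a median difference of -0.39. In 5 of the 9 both siNF90 arrays were below both siNTC arrays, and in 2 both were above, against 22% and 19.2% of all genes. The 5 were the exporters ABCA1, ABCA7, ABCG1, ABCG5 and ABCG8. Single probe sets of ABCA7 and of ABCG1 passed the filter only through the siNTC arrays. For ABCA3, among the 2 above, a probe set passed only through the siNF90 arrays. In limma 0 of the 9 passed after adjustment, and 2, ABCA1 and ABCA7, were lower with an unadjusted p under 0.05, as were 5.29% of all genes.

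ABCA1 loads cholesterol and phospholipid onto apolipoprotein A-I. Its gene value was 5.14 and 5.16 on the siNF90 arrays, against 5.57 and 5.73 on the siNTC arrays. Both siNF90 values were under both siNTC values. The difference was -0.50 (SE 0.18, 95% interval from -0.96 to -0.036), a 1.41-fold lower value, with a limma adjusted p of 0.550. The group means were 5.15 ± 0.019 in siNF90 and 5.65 ± 0.11 in siNTC cells (SD, n = 2 each). Of its 39 kept probe sets 33 were lower and 6 higher in siNF90. The difference was -0.96 with the median of its probe sets in place of the mean, where its adjusted p was 0.602. The LXR element shown above lies in this gene's promoter window.

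ABCA7, a close relative of ABCA1 that exports phospholipid, was at 3.13 and 3.09 on the siNF90 arrays and 3.68 and 3.76 on the siNTC arrays. The groups did not overlap. The value was 1.53-fold lower in siNF90, by a difference of -0.61 (SE 0.17, interval from -1.06 to -0.16), with a limma adjusted p of 0.514. Of its 22 kept probe sets, out of 30, 17 were lower. A filter at the 60th percentile gave -0.39, and all 30 probe sets gave -0.52. Probe set 16856363 had 2.36 and 1.31 on the siNF90 arrays against 4.79 and 4.03 on the siNTC arrays. Probe set 16856400 had 1.25 and 2.33 on the siNF90 arrays against 3.52 and 3.87 on the siNTC arrays. Both passed the filter at the 40th percentile only through the siNTC arrays.

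ABCG1 passes cholesterol to lipoprotein particles. It was at 3.31 and 3.42 on the siNF90 arrays, against 3.83 and 3.68 on the siNTC arrays, a difference of -0.39 (SE 0.18, adjusted p = 0.613 in limma). Only 9 of its 18 probe sets passed the dim filter, 5 of them lower, and with all 18 the difference had the other sign, at 0.054. With the median of its probe sets it was -0.031. Probe set 16923147 of ABCG1 had 0.95 and 1.40 on the siNF90 arrays against 2.94 and 4.80 on the siNTC arrays. That probe set passed the dim filter only through the siNTC arrays.

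ABCG5 and ABCG8 form one heterodimer, which secretes sterols into bile, and are neighbours on chromosome 2. ABCG5 was at 4.11 and 4.51 on the siNF90 arrays and 4.95 and 4.61 on the siNTC arrays. ABCG8 was at 4.24 and 4.05 on the siNF90 arrays and 5.03 and 4.37 on the siNTC arrays. For both genes siNF90 lay below siNTC on both arrays, and for both the first siNTC array was the highest of the 4. The differences were -0.47 (SE 0.24, adjusted p = 0.638) for ABCG5 and -0.55 (SE 0.28, adjusted p = 0.635) for ABCG8 in limma. Without the first siNTC array they were -0.30 and -0.23, without the first siNF90 array that of ABCG5 was -0.27, and without the second siNTC array that of ABCG8 was -0.88. With a gene value formed on each array as the median of the probe sets, in place of the mean, they were -0.75 and -0.86. Of the probe sets, 14 of 18 in ABCG5 and 10 of 11 in ABCG8 were lower in siNF90. One probe set of ABCG5, 16897055, had 3.38 and 3.07 on the siNF90 arrays against 5.95 and 5.73 on the siNTC arrays. That difference of -2.62 had the lowest unadjusted p among the members' probe sets, with an adjusted p of 0.629 over all kept probe sets in limma, while the median of the differences of its single probe sets was -0.27.

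Not all lipid transporters were lower in siNF90. ABCA2, a lysosomal lipid transporter best known from the brain, was at 4.79 and 4.69 on the siNF90 arrays and 4.48 and 4.26 on the siNTC arrays. Its difference was 0.38 (SE 0.19, adjusted p = 0.631 in limma), and 31 of 48 probe sets were higher in siNF90. ABCA3, which loads surfactant lipids in the lung, was at 3.24 and 3.31 in siNF90 and 2.99 and 3.05 in siNTC cells. It kept 11 of 21 probe sets, 6 of them higher and 5 lower. Probe set 16823121 of ABCA3 had 4.74 and 3.43 on the siNF90 arrays against 0.72 and 1.43 on the siNTC arrays. That probe set passed the dim filter, at 2.13, only through the siNF90 arrays. The difference of ABCA3 was 0.25, and 0.14 with all 21 probe sets. ABCA12, a lipid transporter of keratinocytes, and ABCA13 kept 8 of 46 and 15 of 53 probe sets, and their groups overlapped, at differences of -0.22 and 0.068. Their signs turned without the dim filter (ABCA12, 0.053) or with the median of probe sets (ABCA13, -0.067).

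**Figure D3:**
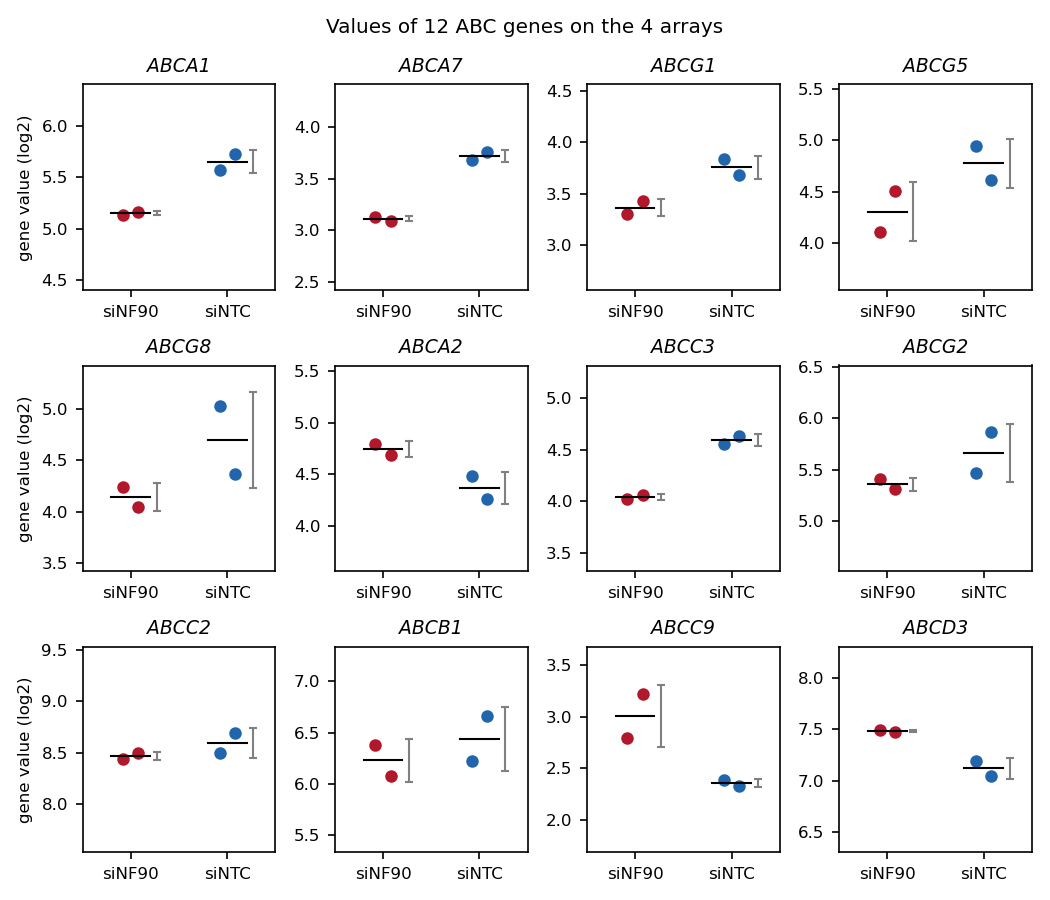
Gene value on the log2 scale (vertical axes, each spanning 2 log2 units) on the 2 siNF90 arrays (red) and the 2 siNTC arrays (blue) for 12 ABC genes, with the group mean (black line) and its SD (grey bar, n = 2). In ABCA1, ABCA7 and ABCC3 both siNF90 points lie below both siNTC points with little spread, in ABCD3 and ABCC9 above them, and in ABCC2 and ABCB1 the groups overlap.

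A second group is a run of 5 related A-subfamily genes, ABCA8, ABCA9, ABCA6, ABCA10 and ABCA5, which follow each other on chromosome 17. Of these, 3 were lower and 2 higher in siNF90. Only ABCA5 was measured by most of its probe sets, 30 of 35. ABCA6 kept 1 of 28, ABCA8 3 of 27, ABCA9 5 of 23 and ABCA10 3 of 24. ABCA5 was at 3.86 and 3.36 on the siNF90 arrays against 3.75 and 4.32 on the siNTC arrays, so the groups overlapped (difference -0.43, SE 0.30, adjusted p = 0.714 in limma). Without the second siNTC array that difference was -0.15, without the second siNF90 array -0.18 and without the first siNTC array -0.71. Probe set 16848331 of ABCA5 had 3.31 and 3.72 in siNF90 and 5.58 and 5.78 in siNTC cells, and its adjusted p was 0.629 in limma. ABCA9 was at 2.52 and 2.12 on the siNF90 arrays and 2.77 and 3.60 on the siNTC arrays (difference -0.87, SE 0.35, adjusted p = 0.577). No fold is given for it, because its siNF90 mean was below the median of all probe sets, and without the second siNTC array its difference was -0.45, and with all 23 probe sets -0.32.

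Of the 11 exporters of drugs and conjugates, 10 were lower and 1, ABCC1, was higher in siNF90, with a median difference of -0.18 and a range from -0.55 to 0.15. In 3 (ABCC3, ABCG2 and ABCC10) the siNF90 arrays were both under the siNTC arrays and in 1 (ABCC1) above, against 22% and 19.2% of all genes. In the others the groups overlapped.

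ABCC3 exports glucuronides and bile acids across the basolateral membrane of hepatocytes. It was at 4.02 and 4.06 on the siNF90 arrays, against 4.55 and 4.63 on the siNTC arrays. The groups were separate with a spread of at most 0.056 (SD, n = 2) in either. The value was 1.47-fold lower in siNF90, by a difference of -0.55 (SE 0.17, interval from -1.005 to -0.10), with a limma adjusted p of 0.523. Of 26 kept probe sets 19 were lower. When each array was left out in turn the difference stayed between -0.59 and -0.51.

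ABCG2, the breast cancer resistance protein, exports drugs and sulphate conjugates. It was at 5.41 and 5.32 on the siNF90 arrays and 5.47 and 5.86 on the siNTC arrays, so the groups did not overlap (difference -0.30, SE 0.21, adjusted p = 0.717 in limma). Without the second siNTC array that difference was -0.11 and without the first -0.50. ABCC2, which exports bilirubin glucuronides and other conjugates into bile, was at 8.44 and 8.50 in siNF90 against 8.49 and 8.69 in siNTC cells. The groups overlapped, and the 95% interval of the difference ran from -0.60 to 0.35. ABCB1, P-glycoprotein, was at 6.38 and 6.08 in siNF90 and 6.22 and 6.66 in siNTC cells, with an interval from -0.84 to 0.43. Its difference of -0.21 was 0.012 without the second siNTC array.

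ABCC1, the first multidrug resistance-associated protein, was at 5.72 and 5.82 on the siNF90 arrays and 5.55 and 5.69 on the siNTC arrays. Its probe sets split evenly, 12 higher and 11 lower, and with their median the sign turned to -0.081. ABCC4, an exporter of cyclic nucleotides and bile acids, had a difference of -0.22, and ABCC5, another exporter of cyclic nucleotides, had -0.20, and without the second siNF90 array these were -0.015 and -0.026. ABCC10, ABCC6, ABCC11 and ABCC12 had differences of -0.14, -0.095, -0.050 and -0.18. Leaving out each array in turn gave -0.23 to -0.061 for ABCC10 and -0.29 to -0.079 for ABCC12. ABCC6, a liver transporter tied to the release of ATP, has near-identical pseudogene copies, so its probe sets may also read those. Among these 4 genes the sign turned under another setting for ABCC6 (0.072 with the median of probe sets), ABCC11 (0.37 with the 60th percentile filter) and ABCC12 (0.072 without the dim filter).

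ABCC9 encodes SUR2, a regulatory subunit of ATP-sensitive potassium channels, and not an exporter. It was at 2.795 and 3.22 on the siNF90 arrays and 2.39 and 2.33 on the siNTC arrays. The groups were separate, with a difference of 0.65 (SE 0.22, interval from 0.075 to 1.23, adjusted p = 0.542 in limma). It rests on 6 of 37 probe sets, 4 higher and 2 lower, its siNTC mean was below the median of all probe sets, and with all 37 the difference was 0.10. No fold is given.

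The 5 mitochondrial and lysosomal transporters were mixed, with 2 lower and 3 higher in siNF90 and a median difference of 0.070. ABCB6, which has been tied to porphyrin transport, was at 4.28 and 5.24 on the siNF90 arrays and 5.40 and 5.29 on the siNTC arrays. The first siNF90 array was far below the other 3, and without it the difference of -0.58 (SE 0.36, adjusted p = 0.685 in limma) was -0.10, against -1.06 without the second siNF90 array. ABCB6 had 4 probe sets of its own, and 13 more that carry several gene symbols were not used. ABCD4, which takes part in the release of cobalamin from lysosomes, was at 5.02 and 4.58 on the siNF90 arrays and 4.52 and 4.33 on the siNTC arrays (difference 0.37, SE 0.23, adjusted p = 0.687). Of its 15 probe sets 11 were higher, and without the first siNF90 array the difference was 0.15, without the second 0.59, and with the median of probe sets 0.068. ABCB10, an inner mitochondrial membrane transporter needed for haem synthesis, had -0.015 and the lysosomal peptide transporter ABCB9 0.070, both with overlapping groups. ABCB8, a mitochondrial transporter, was at 3.60 and 2.31 in siNF90 and 1.86 and 3.52 in siNTC cells, a spread between replicates far above its difference of 0.27.

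ABCD3 carries fatty acids and bile acid intermediates into peroxisomes. It was at 7.49 and 7.48 on the siNF90 arrays, against 7.19 and 7.05 on the siNTC arrays. Both siNF90 arrays were above both siNTC arrays. The value was 1.29-fold higher in siNF90, by a difference of 0.36 (SE 0.18, interval from -0.097 to 0.82), with a limma adjusted p of 0.621, and 0.290 with the trend and robust prior, the lowest of the 36 members there. Of its 25 kept probe sets 19 were higher and 6 lower in siNF90. Its relative ABCD2, over all 11 dim probe sets, averaged 1.04 and 1.36 on the siNF90 arrays and 1.42 and 1.58 on the siNTC arrays, values at which no level can be read.

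The 4 soluble members had differences between -0.046 and 0.16. ABCE1, which splits ribosomes after termination, was at 8.44 on both siNF90 arrays and 8.36 and 8.44 on the siNTC arrays (difference 0.045, interval from -0.40 to 0.49). ABCF1, a factor of translation initiation that binds eIF2, was at 6.93 and 7.06 in siNF90 and 7.01 and 6.84 in siNTC cells, a difference of 0.074 (SE 0.18, adjusted p = 0.925 in limma). Its 196 kept probe sets held 29 different sets of values, repeated. ABCF2 had -0.046, with overlapping groups. ABCF3 was at 6.32 and 5.90 in siNF90 and 6.05 and 5.86 in siNTC cells (difference 0.16, SE 0.23, adjusted p = 0.864).

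By subfamily, all 4 G members (ABCG1, ABCG2, ABCG5 and ABCG8) had both siNF90 arrays below both siNTC arrays, as did 22% of all genes, with a median difference of -0.43, and ABCG1 lost that sign without the dim filter. The mean of the 4 was 4.27 and 4.33 on the siNF90 arrays, against 4.82 and 4.63 on the siNTC arrays. Both measured D members, ABCD3 and ABCD4, were above siNTC on both siNF90 arrays, as were 19.2% of all genes, with a median difference of 0.37. The other subfamilies were mixed, with 6 lower and 5 higher among the 11 A members, 3 and 2 among the 5 B members and 8 and 2 among the 10 C members. These groupings were described after the values had been seen and were not tested.

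Single probe sets were read as well, since each covers a part of a gene. Of the 791 kept probe sets of members, 0 passed limma at an adjusted p of 0.05 (percent of all called: 0). At an unadjusted p under 0.05 there were 53, 15 higher and 38 lower in siNF90, while 7.38% of all kept probe sets were under 0.05. The shares by direction over all kept probe sets are not given here, so nothing is read from that split. Only 624 of the 791 were distinct, the repeats being those of ABCF1, so repeated values can count more than once here. A test for unequal change among the probe sets of a gene, limma's diffSplice with the Simes method, called 0 of 35 members, where 2.57% of 16175 genes were called. At an unadjusted p under 0.05 it gave 5 of the 35 members, where 14.1% of all genes tested were under it. The lowest false discovery rates were 0.0511 for ABCF1 and 0.0760 for ABCD3. With repeated values counted once, an alternative chosen after seeing the data, that of ABCF1 was 0.0907.

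**Figure D4:**
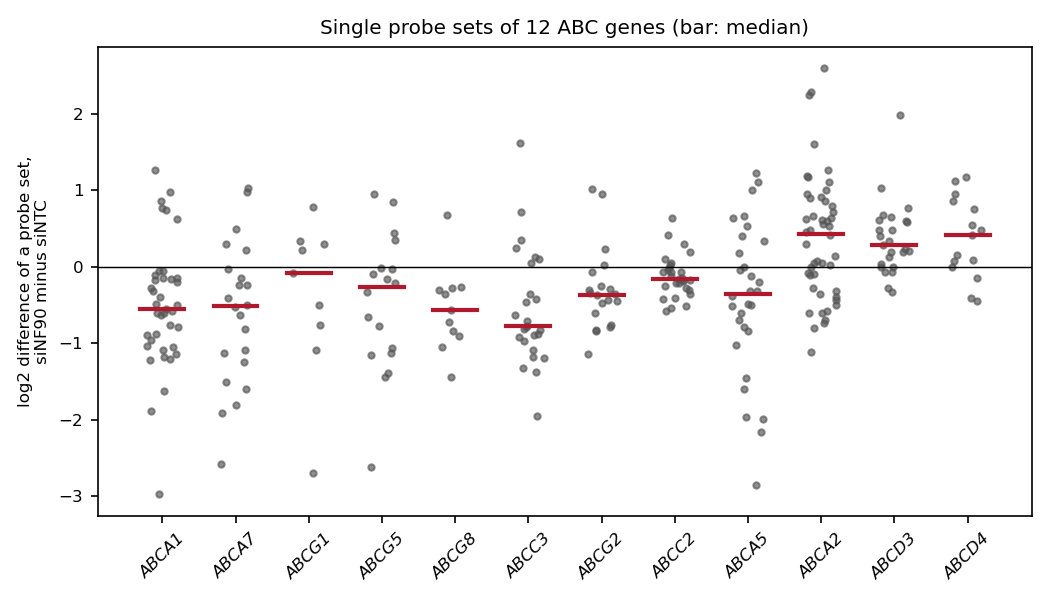
Log2 difference, siNF90 minus siNTC, of every kept probe set (grey points) of 12 ABC genes, with the median of the gene (red bar). The points of ABCA1, ABCG8 and ABCC3 lie mostly below 0 and those of ABCD3 and ABCD4 mostly above, while single points reach from -2.98 in ABCA1 to 2.59 in ABCA2.

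Genes that work with the ABC transporters were read from 6 context lists. Of 19 nuclear receptors and other regulators of ABC genes with a value, 11 were lower and 8 higher in siNF90, with a median difference of -0.0074. The LXR genes NR1H2 and NR1H3 were near equal in both groups, at differences of -0.0074 (SE 0.28) and -0.0014 (SE 0.21). NR1H4, the bile acid receptor FXR, had -0.38 (SE 0.20, adjusted p = 0.644 in limma). NR0B2, the repressor SHP, was the 1 member of these lists called with the trend and robust prior, where 0.251% of all genes were called. On 3 of its 4 probe sets it was at 6.77 and 6.72 in siNF90 against 5.20 and 4.99 in siNTC cells. Its limma adjusted p was 0.00851 with that prior and 0.514 in the constant-prior fit.

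Among 18 LXR targets and partners of sterol export, 9 were lower and 9 higher, with a median of 0.028. MYLIP, an LXR target that degrades the LDL receptor, had 0.51 (SE 0.20) and the sterol esterifying enzyme SOAT2 0.49 (SE 0.22), with limma adjusted p of 0.578 and 0.612. Among 14 genes of peroxisomal import and oxidation, 7 were lower and 7 higher, with a median of 0.030. HSD17B4, a peroxisomal oxidation enzyme, had -0.33 (SE 0.17), opposite in sign to ABCD3, and the import factor PEX16 also -0.33 (SE 0.17), with limma adjusted p of 0.643 and 0.644.

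Enzymes of conjugation and of glutathione synthesis, which serve to make substrates of the C subfamily, had the lowest median of the 6 lists, at -0.31 over 15 genes. Of these, 12 were lower and 3 higher in siNF90, 9 with both siNF90 arrays below both siNTC arrays and 0 above, against 22% and 19.2% of all genes, and 0 were called in limma. SULT2A1, the sulphotransferase of steroids and bile acids, was at 5.41 and 5.15 in siNF90 and 6.15 and 6.46 in siNTC cells (difference -1.02, SE 0.22, adjusted p = 0.514 in limma). UGT1A1, which conjugates bilirubin, was at 0.99 and 1.17 in siNF90 against 3.98 and 2.85 in siNTC cells, read from 1 probe set that was below the dim filter's level of 2.13 in siNF90. That probe set passed the filter only through the siNTC arrays, and UGT1A1 is among the 12 and the 9. Among 13 genes of haem and iron-sulphur synthesis 10 were lower, with a median of -0.15. UROS, a haem synthesis enzyme, had -0.82 (SE 0.19, adjusted p = 0.514 in limma) and SLC25A38, a mitochondrial carrier that serves haem synthesis, 0.34 (SE 0.18, adjusted p = 0.649). For 15 partners in translation and ribosome recycling the median was 0.011, with the termination factors GSPT1 at -0.32 (SE 0.18) and ETF1 at -0.19 (SE 0.18).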

How the data were processed

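Per the labels, the authors made log2 RMA values in Affymetrix Expression Console (RMA-sketch), and 1 table of 352859 probe sets on 4 arrays was deposited; the log base was taken from the method and the range of the values, and neither the program version nor the genome build is stated. RMA corrects background, normalizes quantiles and summarises probes. Probe sets with 1 symbol in the platform's probe table (257971) were used, and those whose mean over 4 arrays was below the 40th percentile (2.13) were left out. A gene value was the mean of the remaining 171120 in 19140 genes. A probe set dim in 1 group could pass this filter through the other group alone. RMA is known to compress differences of dim probe sets. limma 3.58.1 (R 4.3.3, lmFit and eBayes, two-sided) compared siNF90 with siNTC over all genes without covariates, and diffSplice compared probe sets within genes. The code was tested on simulated data. No fold is given where the lower group mean was below the medians of all probe sets. An exact permutation test of 2 against 2 arrays cannot go below p = 0.333, so list means were not tested. With 2 arrays a group, precision is low.

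The family, its role groups and the context lists were chosen with earlier results of these data known. The rule for genes given in full takes members with an unadjusted p under 0.05 or a call with the trend and robust prior, the 2 lowest p per role group, and the 2 lowest p per context list. The values of other members were added after they had been seen. Alternatives were other dim filters, the median of probe sets, a minimum share of probe sets of 50%, repeated values counted once, quantile normalization again, centring, the trend and robust prior, a replicate block, and leaving out each array. Scan dates and slides are not stated. Some genes of the context lists, and the gene encoding NF90, are not analysed here.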

Additional observations from a re-analysis of the deposited data

How the results depend on the processing

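No member passed the adjusted threshold of 0.05 under any of the alternatives run, and the lowest adjusted p of a member over them was 0.290, with the trend and robust prior. Of 310 member results under alternatives other than leaving out an array, 9 had the other sign. The 9 were ABCA12 (0.053), ABCG1 (0.054) and ABCC12 (0.072) without the dim filter, ABCC11 (0.37) and ABCB9 (-0.040) with the filter at the 60th percentile, and ABCA13 (-0.067), ABCC1 (-0.081), ABCC6 (0.072) and ABCF1 (-0.070) with the median of probe sets. When each array was left out in turn, 13 members changed sign, and 20 kept their sign in every setting run. Their ranges without an array were -0.54 to 0.10 for ABCA12, -0.37 to 0.50 for ABCA13, -0.0065 to 1.30 for ABCA6, -0.65 to 0.45 for ABCA10, -0.43 to 0.012 for ABCB1, -0.48 to 0.29 for ABCC6, -0.38 to 0.28 for ABCC11, -0.56 to 1.10 for ABCB8, -0.10 to 0.24 for ABCB9, -0.22 to 0.19 for ABCB10, -0.0081 to 0.16 for ABCF1, -0.18 to 0.082 for ABCF2 and -0.050 to 0.36 for ABCF3. Without a change of sign, ABCC4 ran from -0.42 to -0.015, ABCC5 from -0.36 to -0.026, ABCC2 from -0.23 to -0.026, ABCC1 from 0.073 to 0.22, ABCA8 from 0.0087 to 0.82 and ABCE1 from 0.0047 to 0.085. The mean difference of the family was -0.14 with the median of probe sets and -0.13 over the 27 members with at least 50% of their probe sets kept, and from -0.12 to -0.044 without an array. The calls over all genes numbered 0 in the constant-prior fit, 4 without the dim filter and 48 with the trend and robust prior. Unequal probe sets were called in 1 member, ABCF1, with the filter at the 60th percentile. Its 183 probe sets at that filter include repeated values, which entered the test as separate probe sets. The share of all genes called there is not given here. The causes were not tested. Over all genes, the deviations of arrays of one number from their group means correlated at -0.0118. With 2 arrays a group, this cannot tell whether the numbers pair the samples. The replicate block called 0 members and 0 of all genes, with a family mean of -0.082 and a lowest member adjusted p of 0.615. Dim probe sets limit ABCD2, ABCA6, ABCA8, ABCA9, ABCA10, ABCA12, ABCA13, ABCB8, ABCC9 and ABCC12. With 1 array left in a group, its spread was taken as that of the other group.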
